A study of Homo sapiens with 2 samples.

Results

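Membrane-anchored serine proteases of the TMPRSS, hepsin and matriptase family and their Kunitz-type inhibitors were described in Huh7, an established human hepatocellular carcinoma line. The set holds 9 of the 19927 genes of the count table: the proteases TMPRSS9, HPN, TMPRSS6, TMPRSS2, TMPRSS4, TMPRSS3 and ST14, and the inhibitors SPINT1 and SPINT2. They were taken by name and chosen by the ratio of HD to DMSO counts in these same libraries, in which TMPRSS9 stood out, so their ratios are given as a description. Attached cells received DMSO, the solvent, or homochlorcyclizine dihydrochloride (HD), an antihistamine acting on histamine H1 receptors, and were harvested after 48 h. Poly(A)-selected RNA was sequenced in 1 library per group, and the labels state no dose. With 1 library per group there is no replicate check and no p-value, and every interval below is a 95% counting interval for these libraries.

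Type II transmembrane serine proteases sit in the plasma membrane by an anchor near the N terminus and carry a trypsin-like protease domain outside the cell. They are made as inactive precursors, are activated by a cut in front of the protease domain, and cleave growth factors, receptors and other proteases at the cell surface. The membrane proteins HAI-1 (gene SPINT1) and HAI-2 (gene SPINT2) block several of them through Kunitz domains, which fit into the active site like a substrate. In liver, hepsin (HPN) is an abundant hepatocyte surface protease, and matriptase-2 (TMPRSS6) lowers hepcidin by acting on the BMP co-receptor hemojuvelin.

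What makes these proteins proteases is the serine of the active site, so the coding stretch around its codon is shown for each protease from GENCODE release 29 transcripts on GRCh38. Every stretch is 33 bases, read 5′ to 3′ along the mRNA, with the serine codon in capitals.
TMPRSS9, the first domain: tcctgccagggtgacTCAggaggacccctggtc
TMPRSS9, the second domain: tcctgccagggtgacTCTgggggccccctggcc
HPN: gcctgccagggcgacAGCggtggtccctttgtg
TMPRSS6: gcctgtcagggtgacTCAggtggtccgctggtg
TMPRSS2: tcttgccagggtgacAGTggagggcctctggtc
TMPRSS4: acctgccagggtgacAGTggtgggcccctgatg
TMPRSS3: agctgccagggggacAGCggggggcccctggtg
ST14: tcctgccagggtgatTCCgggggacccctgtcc

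The 8 stretches had the same base at 16 of 33 positions, and pairs of them shared between 21 and 29 bases. In each of the 8 an exon junction fell after base 9, so the serine codon lies at the start of its exon. The serine codon itself took both forms of the genetic code, AGC or AGT in HPN, TMPRSS2, TMPRSS3 and TMPRSS4 and TCA, TCC or TCT in TMPRSS6, ST14 and TMPRSS9. TMPRSS9, also called polyserase-1, is the member with tandem protease domains, of which the last is known to lack the catalytic serine. The coding sequence of TMPRSS9 held 2 such serine stretches and that of every other protease held 1. On chromosome 19 of GRCh38 the stretches of TMPRSS9, with the intron that each crosses, span 2410386 to 2413723 and 2418130 to 2421877 on the plus strand, and that of HPN spans 35065673 to 35065891.

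Similarity of this kind did not extend to the length of sequencing reads. No run of 31 bases of the protein-coding transcripts was shared between any 2 of the 9 genes, so reads of one are not readily assigned to another. Runs shared with other genes made up 7.90% of TMPRSS9, nearly all with TIMM13, whose end overlaps that of TMPRSS9 by 313 exon bases on the opposite strand. They made up 3.35% of HPN (with the antisense RNA HPN-AS1), 2.20% of SPINT1 (with SPINT1-AS1) and 8.09% of SPINT2. For TMPRSS3 and TMPRSS4 they made up 2.21% and 1.55%, mostly shared with genes of the count table such as ABCC10 and CTCF, and the other 3 genes shared none. Whether the counting used strand is unknown here, so reads of such overlaps cannot be told apart. TIMM13, an import chaperone of mitochondria, had 2018 counts with DMSO and 1910 with HD, a ratio of 0.888 (0.834 to 0.946), which is opposite in direction to TMPRSS9.

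The libraries held 38133894 counts (DMSO) and 40791119 counts (HD). All 10 fixed hepatocyte and liver cancer markers were above 1 CPM (counts per 1000000 counts of the scaled library) in both, among them ALB, AFP and HNF4A. Of 20 markers of other cell types 7 had a mean of at least 1 CPM, among them LYZ, CDX2 and VIL1. The summed level of the 20 was 999 CPM with DMSO and 999.9 CPM with HD. Single markers went both ways within that sum, with ratios of 0.660 for CDX2, 0.482 for PECAM1 and 1.18 for LYZ. COL3A1, with 43 and 5 counts and a mean under 1 CPM, had a ratio of 0.109 (0.0337 to 0.275). Among liver markers ratios were 0.725 for AFP and 1.44 for APOB. The part of all these markers in the results below was not tested. The prostate markers KLK2 and KLK3 and the endothelial KDR had 0 counts in both. Where no read was counted, up to 3 counts remain possible, or 0.0785 CPM with DMSO and 0.0737 CPM with HD.

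Genes averaging 1 CPM or more over both libraries were called higher or lower if their scaled counts differed by 2-fold or more and the counting interval did not hold 1. By this rule 5.81% of 12353 genes were higher and 5.1% were lower in the HD library, 10.9% in all. Of the 9 genes, 6 passed the level filter, 3 of these were higher (TMPRSS9, HPN and TMPRSS6) and none was lower. The values of these libraries were known when the genes were chosen, so nothing is read from that count. In a bulk culture, more RNA per cell and more cells that express a gene cannot be told apart.

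**Figure D1:**
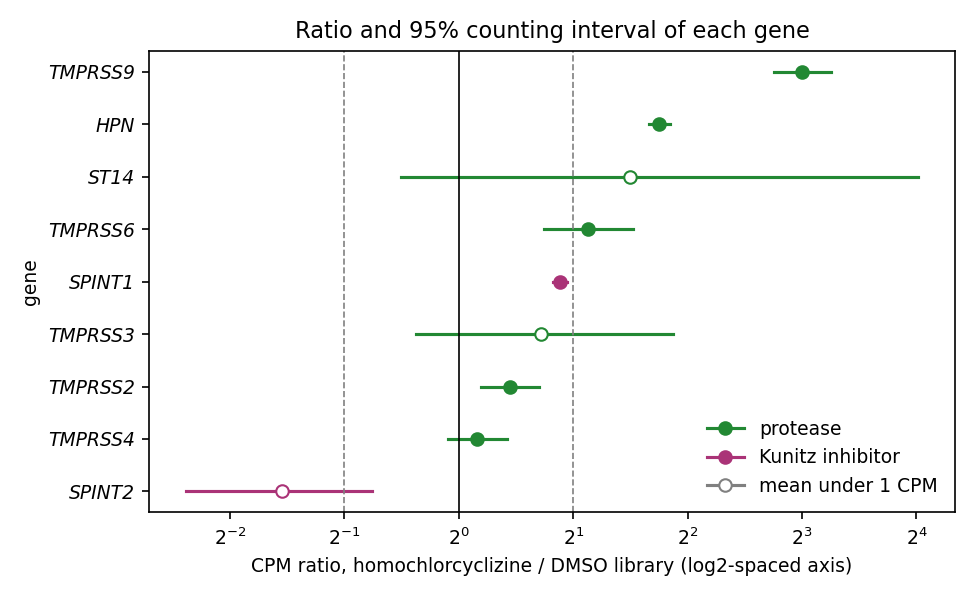
CPM ratio of the HD to the DMSO library on an axis spaced by log2, with 1 row per gene. Points are ratios, lines are 95% counting intervals, open points are genes with a mean under 1 CPM, and dashed lines mark 2-fold. TMPRSS9 lies at 8.01, HPN at 3.37 and SPINT2, the only gene left of 1, at 0.343.

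TMPRSS9 encodes polyserase-1, whose protease domains can be released from a single chain (chromosome 19, 2360265 to 2426261, plus strand). It had 153 counts with DMSO and 1305 with HD, which is 4.0 and 32.1 CPM. Its ratio of 8.01 (6.77 to 9.53) was 17th of 12353 genes, and 4th of the 10601 genes averaging at least 5 CPM. Per gene length the level went from 1.41 to 11.2 FPKM (fragments per kilobase of gene, scaled to library total). TMPRSS9 therefore moved from the fifth to the third place among the 9 genes. The 3 genes of at least 5 CPM nearest to it in log2 ratio over the 2 libraries (2.99) were CLTRN, the membrane protein collectrin (2.92), the neuronal enolase ENO2 (3.09) and IGFBP1, a binding protein of insulin-like growth factors (2.84).

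HPN encodes hepsin, which activates the precursors of hepatocyte growth factor and of other proteases (chromosome 19, 35040506 to 35066573, plus strand). Its 1229 counts in the DMSO library stood against 4407 in the HD library, or 32.2 and 108 CPM, a ratio of 3.37 (3.16 to 3.59) at rank 142. Hepsin was the most abundant protease of the set in both libraries, with 16.5 and 55.4 FPKM. It supplied 74.1% of the summed protease FPKM in the DMSO library and 76.1% in the HD library. The share of TMPRSS9 went from 6.31% to 15.4%, while that of TMPRSS2 went from 7.95% to 3.31% and that of TMPRSS4 from 7.81% to 2.67%.

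TMPRSS6, matriptase-2 (chromosome 22, 37065436 to 37110536, minus strand), had 81 counts with DMSO and 189 with HD, 2.12 and 4.64 CPM. Its ratio was 2.19 (1.68 to 2.88), so the counting interval reaches below 2-fold. The level per length was 0.687 and 1.5 FPKM, far under that of hepsin in either library.

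TMPRSS2, a protease of prostate and gut epithelium that also primes viral spike proteins (chromosome 21, 41464305 to 41508158, minus strand), had 223 and 324 counts. That is 5.84 CPM with DMSO and 7.96 CPM with HD, a ratio of 1.36 (1.15 to 1.62), under the 2-fold rule. TMPRSS4, an epithelial protease reported at raised levels in several carcinomas (chromosome 11, 118077078 to 118125505, plus strand), had 234 and 279 counts. Its levels of 6.12 and 6.85 CPM gave a ratio of 1.12 (0.937 to 1.34), an interval that holds 1.

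TMPRSS3 and ST14 were close to the limit of detection. TMPRSS3, a protease needed for hearing (chromosome 21, 42371890 to 42396052, minus strand), had 12 counts with DMSO and 21 with HD, a ratio of 1.64 (0.772 to 3.66). ST14, matriptase, which guards epithelial barriers and is the classic target of HAI-1 (chromosome 11, 130159782 to 130210362, plus strand), had 3 and 9 counts, a ratio of 2.82 (0.703 to 16.2). A difference between the libraries was not detectable at this depth for either gene. Both libraries thus held the inhibitor of matriptase at a high level and matriptase itself at 0.0238 and 0.0668 FPKM.

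The inhibitors differed in level and in direction. SPINT1 (chromosome 15, 40844048 to 40858207, plus strand) had 3514 counts with DMSO and 6908 with HD, 92.0 and 169.7 CPM, a ratio of 1.85 (1.77 to 1.92), just under the 2-fold rule. SPINT2 (chromosome 19, 38264573 to 38292615, plus strand) had 52 counts with DMSO and 19 with HD, 1.36 and 0.467 CPM, a ratio of 0.343 (0.191 to 0.590). With a mean of 0.914 CPM, SPINT2 lay just under the level filter and was not counted, while with no filter it would be counted as lower. SPINT2 shares 242 exon bases with another GENCODE gene on the same strand that is no row of the count table. SPINT1 made up 97.3% of the summed inhibitor FPKM in the DMSO library and 99.5% in the HD library.

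**Figure D2:**
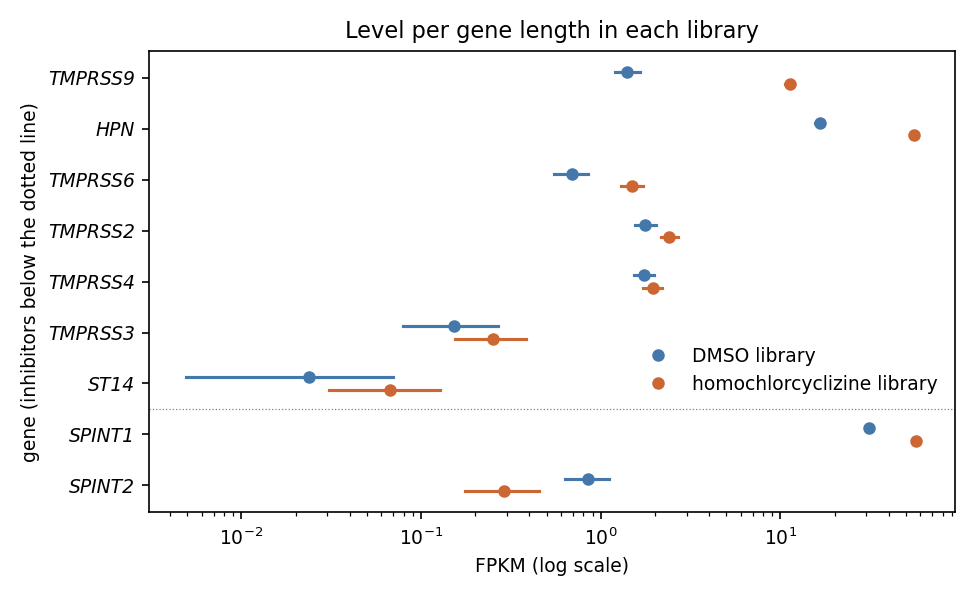
FPKM of each gene on a log axis, with 1 row per gene and the inhibitors under the dotted line. Points are the deposited values of each library, and lines are exact 95% Poisson intervals of the counts. SPINT1 and HPN lie at the right in both libraries, TMPRSS9 shows the widest gap between them, and ST14 lies at the left.

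In order of FPKM the DMSO library had SPINT1 (31.03), HPN (16.5), TMPRSS2 (1.77), TMPRSS4 (1.74), TMPRSS9 (1.41), SPINT2 (0.851), TMPRSS6 (0.687), TMPRSS3 (0.153) and ST14 (0.0238). Within counting error TMPRSS2 did not differ from TMPRSS4, nor SPINT2 from TMPRSS6. In the HD library the order was SPINT1 (57.0), HPN (55.4), TMPRSS9 (11.2), TMPRSS2 (2.41), TMPRSS4 (1.94), TMPRSS6 (1.5), SPINT2 (0.291), TMPRSS3 (0.25) and ST14 (0.0668). Here SPINT1 and HPN did not differ beyond counting error (ratio interval 0.991 to 1.07), nor did SPINT2 and TMPRSS3. The spread between cultures was not measured, so these orders hold for single libraries. Levels of different genes also depend on the gene length behind the FPKM, which the intervals do not cover. The deposited values imply 1950 bases for HPN and 2970 for SPINT1, which is 122 and 86 bases from the nearest GENCODE transcript. This gap was larger for TMPRSS9 (281 bases), ST14 (234) and SPINT2 (199), and between 11 and 57 bases for the other genes.

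Ratios between genes of the same library do not depend on how the libraries are scaled. HPN stood at 0.533 FPKM per FPKM of SPINT1 in the DMSO library and at 0.972 in the HD library, a 1.82-fold difference (1.69 to 1.97). TMPRSS9 stood at 0.0454 and 0.197 per SPINT1, a 4.34-fold difference (3.65 to 5.19). Relative to SPINT1, TMPRSS6 differed 1.19-fold between the libraries (0.907 to 1.56), an interval that holds 1. The same HD to DMSO ratios relative to SPINT1 were 0.739 (0.618 to 0.885) for TMPRSS2, 0.607 (0.505 to 0.728) for TMPRSS4 and, for SPINT2, 0.186 (0.104 to 0.320). Between the proteases, the ratio relative to HPN was 2.38 for TMPRSS9 (1.99 to 2.86) and 0.651 for TMPRSS6 (0.495 to 0.862).

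Summed over the 7 proteases, the level was 22.3 FPKM in the DMSO library and 72.8 in the HD library, 3.26-fold higher, and most of that sum is hepsin. The 2 inhibitors together were at 31.9 and 57.3 FPKM, 1.80-fold higher. Protease per inhibitor was therefore 0.70 in the DMSO and 1.27 in the HD library. Without HPN it was 0.182 and 0.304. The 5 proteases other than HPN and TMPRSS9 were together 1.41-fold higher, less than the inhibitors at 1.80-fold. Relative to inhibitor the sum of these 5, though not each of them, was therefore lower in the HD library. The higher quotients above thus come from HPN and TMPRSS9. These are mRNA levels, and neither protein, activation nor activity was measured.

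**Figure D3:**
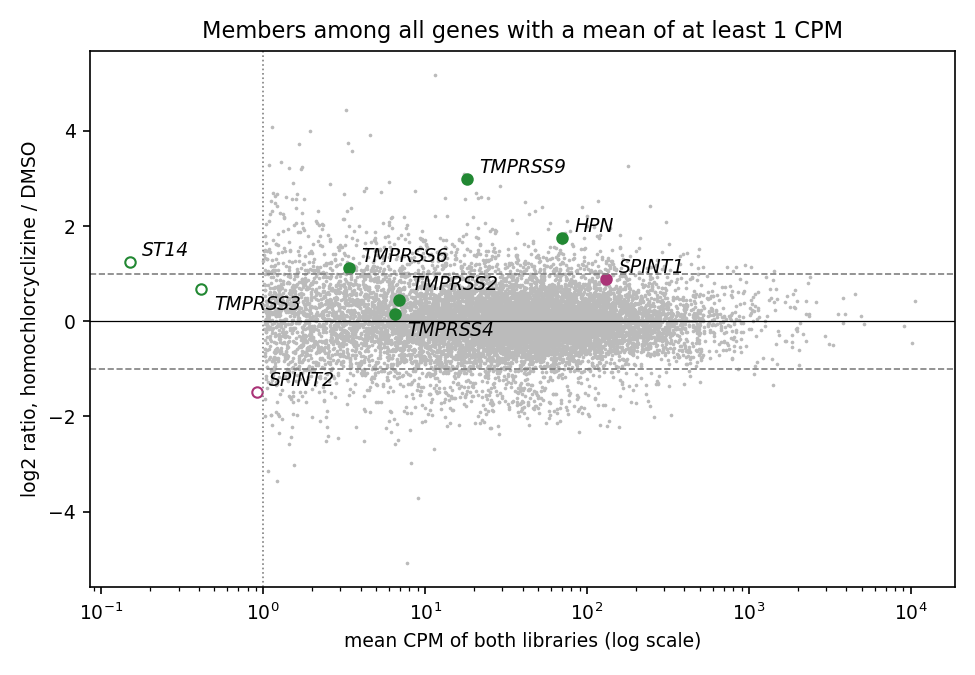
Log2 ratio of the HD to the DMSO library against mean CPM on a log axis. Grey points are the 12353 genes averaging at least 1 CPM, coloured points are the 9 genes (green proteases, purple inhibitors, open where the mean is under 1 CPM) and dashed lines mark 2-fold. TMPRSS9 at 2.99 lies at the upper edge of the cloud at its level, and TMPRSS4 at 0.16 lies within it.

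Promoter windows were read from RefSeq (GRCh38.p14) and are shown for TMPRSS9, HPN and SPINT1, the genes with an entry whose ratio exceeded 1 with a counting interval that excluded 1. Of the 9 genes, 4 had a RefSeq promoter entry (TMPRSS9, HPN, SPINT1 and TMPRSS3). Each window runs from 250 bases before a RefSeq transcript start to 50 after it. For HPN and TMPRSS3 that start lies inside the gene span given here, downstream of its outermost start. Capitals mark matches to the motifs searched on both strands: the GC box GGGCGG, the CCAAT box CCAAT, the TATA box TATAAA, the E-box CACGTG, the C/EBP-ATF element TGATGNAA, a sterol element TCACNCCAC and an antioxidant element TGACNNNGC.
TMPRSS9, chr19:2360015-2360314, plus strand: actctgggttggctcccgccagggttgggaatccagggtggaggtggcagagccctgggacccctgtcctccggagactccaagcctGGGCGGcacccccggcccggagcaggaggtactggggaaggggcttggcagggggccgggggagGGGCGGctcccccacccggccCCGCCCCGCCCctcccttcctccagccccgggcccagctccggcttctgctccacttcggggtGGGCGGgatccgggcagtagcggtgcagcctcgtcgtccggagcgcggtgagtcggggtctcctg
HPN, chr19:35041471-35041770, plus strand: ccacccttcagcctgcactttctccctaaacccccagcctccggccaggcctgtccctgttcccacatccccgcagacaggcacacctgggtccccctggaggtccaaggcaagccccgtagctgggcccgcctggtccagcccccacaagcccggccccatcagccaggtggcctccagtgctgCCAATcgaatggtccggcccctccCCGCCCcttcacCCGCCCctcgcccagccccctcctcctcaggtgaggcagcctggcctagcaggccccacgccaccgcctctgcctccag
SPINT1, chr15:40843798-40844097, plus strand: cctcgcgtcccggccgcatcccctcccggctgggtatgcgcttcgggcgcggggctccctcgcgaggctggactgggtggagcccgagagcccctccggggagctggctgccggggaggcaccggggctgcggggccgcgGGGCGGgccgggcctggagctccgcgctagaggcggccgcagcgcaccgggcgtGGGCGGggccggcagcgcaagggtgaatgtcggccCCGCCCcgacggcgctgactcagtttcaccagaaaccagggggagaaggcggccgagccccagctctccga

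All 3 windows held GC boxes, with 5 matches in TMPRSS9 (overlapping matches counted apart), 2 in HPN and 3 in SPINT1. Among 34943 RefSeq promoter windows, 44.9% hold at least 1 GC box. The CCAAT box, present in 34.6% of windows, was matched once in HPN. Letters of the TATA box (11.6% of windows), the E-box (7.23%), the C/EBP-ATF element (3.62%), the sterol element (1.12%) and the antioxidant element (13.3%) were not in these windows. G and C made up 74.7%, 71.0% and 77.7% of the windows of TMPRSS9, HPN and SPINT1, against a median of 58.7% over the table. SPINT1 has a second start in the table, and its window and that of TMPRSS3, at 56.3% G and C, held none of the motifs.

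The genes next to the members on the chromosome gave calls at a share near that of all genes. Of 18 nearest protein-coding neighbours 12 passed the level filter, 1 was higher and none lower, beside 5.81% higher and 5.1% lower over all genes. Their median log2 ratio was 0.19, beside -0.01 over all genes. The higher one was SCN4B, a sodium channel subunit next to TMPRSS4, with 28 and 71 counts (ratio 2.38, 1.52 to 3.83). TMPRSS9 lies between the intramembrane protease SPPL2B, with a ratio of 1.23 (1.12 to 1.35), and TIMM13. MX1, an interferon-induced gene beside TMPRSS2, had 150 and 306 counts, a ratio of 1.91 (1.57 to 2.34). TMPRSS9 and HPN lie on chromosome 19, as does SPINT2, whose ratio was under 1. On that chromosome 7.66% of 875 genes were higher, beside 5.81% over all genes, and the share of lower genes was not computed.

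The wider family was nearly silent. Of 14 other membrane-anchored serine proteases 9 had 0 counts in both libraries and none reached a mean of 1 CPM. Prostasin (PRSS8), the partner of matriptase at epithelial surfaces, was among those at 0, as were TMPRSS13 and TMPRSS15, which encodes enteropeptidase. CORIN, the protease that processes natriuretic peptide precursors, had 26 and 18 counts, TMPRSS7 had 18 and 23, and TMPRSS5 had 7 and 18 (ratio 2.41, 0.962 to 6.84).

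Of 13 other proteins with Kunitz domains, 7 passed the level filter, 2 of these were higher by the rule (5.81% over all genes) and none was lower. In all 6 of the 7 had a ratio over 1, beside 48.9% of all genes, and their median log2 ratio was 0.66, beside -0.01. The amyloid precursor APP, some of whose isoforms carry a Kunitz domain, was at 520 CPM in the DMSO and 1138 in the HD library (ratio 2.19, 2.15 to 2.23). COL7A1, the collagen of anchoring fibrils, had a ratio of 2.06 (1.78 to 2.40), and PAPLN one of 1.72 (1.26 to 2.36). TFPI2, a pericellular inhibitor of plasmin, had a ratio of 0.561 (0.422 to 0.741), under the rule.

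Substrates, zymogens and receptors of pericellular proteolysis went both ways. Of 18 listed genes 12 passed the level filter, with none higher, 1 lower, 6 at a ratio over 1 and a median log2 ratio of 0.06. Over all genes 5.1% were lower and 48.9% had a ratio over 1, so these counts are near the background. The lower gene was PLAU, the urokinase activated by hepsin and matriptase, with 399 and 166 counts, 10.4 and 4.08 CPM (ratio 0.391, 0.324 to 0.469). Its receptor PLAUR had a ratio of 0.572 (0.399 to 0.814) and plasminogen (PLG), which it cleaves, one of 0.509 (0.410 to 0.631).

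The growth factor arm was lacking in part. HGF had 0 counts in both libraries, and HGFAC, the secreted activator of its precursor and a target of HAI-1, had 2 and 11 counts (ratio 5.16, 1.13 to 47.9). The HGF receptor MET was at 89.1 and 109 CPM (ratio 1.23, 1.17 to 1.28). MST1R, the receptor of the related ligand MST1, had a ratio of 1.80 (1.27 to 2.59). The ligand MST1 itself was at 26.4 and 33.5 CPM (ratio 1.27, 1.17 to 1.38). EPCAM, an epithelial adhesion protein cleaved by matriptase, was at 341 and 386 CPM (ratio 1.13, 1.11 to 1.16). F2RL1, the protease-activated receptor PAR2, had a ratio of 1.10 (1.05 to 1.16), and CDCP1, a cleaved adhesion receptor, one of 0.616 (0.545 to 0.695).

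Of 22 genes of hepcidin and BMP signalling, the pathway that TMPRSS6 restrains, 19 passed the level filter, 1 was higher and none lower, a share near the 5.81% of all genes, and the median log2 ratio was 0.16. The higher gene was TFR2, the transferrin sensor of hepatocytes, with 14 and 84 counts, 0.366 and 2.06 CPM (ratio 5.63, 3.18 to 10.7). HAMP, which encodes hepcidin, had 0 counts with DMSO and 12 with HD, and the counting interval of its ratio starts at 2.61. HJV, hemojuvelin, the substrate of TMPRSS6, had 10 counts with DMSO and 0 with HD, and the counting interval of its ratio ends at 0.419. Both lie under the level filter.

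Among the more abundant genes of that pathway, the BMP target ID1 was at 340.4 and 240.0 CPM (ratio 0.705, 0.687 to 0.724), while the inhibitory SMAD7 had a ratio of 1.23 (1.14 to 1.32). The receptors BMPR2 and ACVR1 had ratios of 1.73 (1.64 to 1.81) and 1.59 (1.46 to 1.73). BMP6, the iron-regulated ligand, had 18 and 20 counts. FURIN, which also cleaves hemojuvelin, had a ratio of 1.45 (1.42 to 1.48), and ERFE, erythroferrone, one of 0.602 (0.401 to 0.897).

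**Figure D4:**
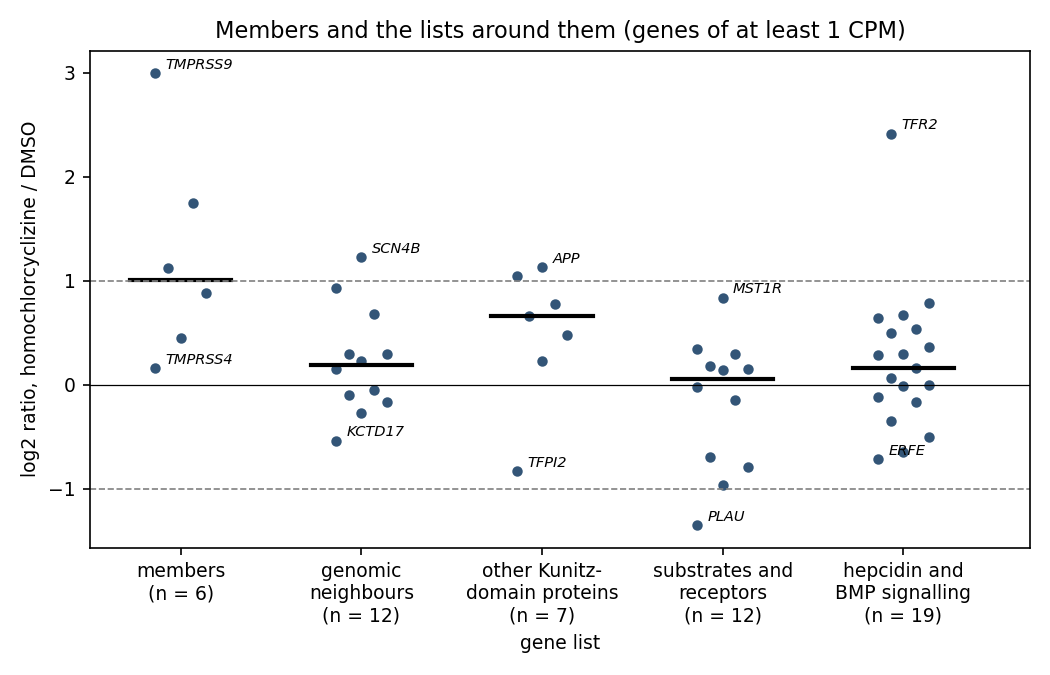
Log2 ratio of the HD to the DMSO library for genes averaging at least 1 CPM, in 5 columns: the members, their genomic neighbours and 3 lists of related genes. Points are genes, bars are medians, dashed lines mark 2-fold, and the highest and lowest gene of each column is named. The columns of substrates and of hepcidin signalling have medians of 0.06 and 0.16, with PLAU lowest at -1.35 and TFR2 highest at 2.41.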

How the data were processed

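RNA-seq of 2 Huh7 libraries (1 DMSO, 1 HD) was used. The authors deposited raw counts per gene symbol and FPKM values per library. The genome build was hg38 per the submitters' processing notes. No source used here names the aligner, counter, strand setting or annotation. In 14778 genes with counts in both libraries, ratios of deposited FPKM and of counts per library total differed by at most 3.13e-05%, so both hold 1 measurement.

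Counts were scaled with TMM factors (edgeR 4.0.16, R 4.3.3). Log2 ratios used a prior count of 1, and intervals are exact Clopper-Pearson intervals (Python 3.11.15, scipy 1.17.1), or conditional odds ratio intervals for ratios between genes. Reads that are PCR copies are not independent, and intervals and floors describe counting error alone. At 1 CPM an interval spans 1.60-fold to either side, at 5 CPM 1.22-fold.

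Members, lists, motifs and tests were chosen with earlier results of these data known. Named genes are the 9 members, 16 fixed genes, up to 4 genes per list with the largest absolute log2 ratio among those of at least 1 CPM, neighbours, markers, and the 3 genes nearest to TMPRSS9. Other genes (TMPRSS13, TMPRSS15, CORIN, TMPRSS7 and TMPRSS5) were chosen after their values were seen, and some genes that the rule takes are not reported here. Alternatives were library totals, DESeq2 1.42.0 size factors, upper-quartile factors, FPKM, prior counts of 0.25 and 5, no filter and a filter of 5 CPM.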

Additional observations from a re-analysis of the deposited data

How the results depend on the processing

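Among 159 comparisons of a result with an alternative setting, 149 stayed the same and 10 moved. Some of these could hardly move. In the list of other membrane-anchored serine proteases no gene passed the filter of 1 CPM. TMM factors were 1.002 (DMSO) and 0.998 (HD), and FPKM and counts hold 1 measurement. A ratio counted as the same within its counting interval, and a count of genes within 1.5 times. A count of members had to be equal, and a list median had to stay within the typical counting error of its genes. The log2 ratio of TMPRSS9 ran from 2.95 to 3.02 over the alternatives and that of HPN from 1.74 to 1.78. At 3 and 9 counts, that of ST14 ran from 0.66 to 1.42. No gene of the set changed direction under any of them. With no filter 1197 genes were higher and 946 lower, against 718 and 630 at 1 CPM, since more genes were tested. With no filter 1 member was lower (SPINT2), the substrate list had 1 higher and 2 lower genes, and the hepcidin list had 2 higher and 1 lower. At 5 CPM 2 members were higher, since TMPRSS6 was no longer tested, and the hepcidin list had 0 higher genes, since TFR2 was not tested. With deposited FPKM and a pseudocount of 0.05, which pulls low ratios towards 1, the Kunitz list had 1 higher gene. Leaving out a replicate could not be done with 1 library per group. No paired analysis was possible because each group has 1 library. Depth limits TMPRSS3, ST14, SPINT2, HAMP and HJV, all under the level filter.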
